A study of Mus musculus with 21 samples.

Results

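S100 genes encode small calcium-binding proteins. The 10 described here, S100a3, S100a4, S100a6, S100a8, S100a9, S100a10, S100a11, S100a14, S100a16 and S100b, were taken by gene name from a table of 22050 genes and transcripts, and all 10 were among the 12782 entries that passed the filter on low values (a mean of 1 or more). They were measured by mRNA-seq in GFP+ keratinocytes of mouse dorsal skin, in 4 samples from p16-expressing mice and 4 samples from control mice. Control mice carried K5-rtTA and tet-GFP, and p16-expressing mice carried K5-rtTA, tet-GFP and tet-p16. All mice were of mixed FVB, C57Bl and 129sv background and received doxycycline from 3 weeks of age for 6 months. The keratin 5 promoter drives the transactivator, so the transgenes were switched on in basal cells of the epidermis and its appendages. Each sample pooled about 80000 cells of 3 mice, after cells stained for CD140a, CD45 or CD31 (fibroblasts, immune and endothelial cells) had been gated out. The samples came from 3 independent experiments according to the methods, which do not say which sample belonged to which.

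S100 proteins bind calcium through paired EF-hand motifs, mostly as dimers, and then expose a surface that grips target proteins. Inside the cell they act on annexins, the cytoskeleton and membranes. Some of them, above all S100a8 and S100a9, are also released from stressed or dying cells and act as alarmins, signalling through receptors such as Ager (RAGE) and Tlr4. Most S100 genes lie together in the epidermal differentiation complex, beside the genes of the cornified envelope.

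The promoters of S100a4, S100a6 and S100a11 are shown first, because these abundant genes had, in that order, a large difference, a moderate one and one that did not pass the test. The sequences are the 250 bases before the RefSeq transcription start, on the + strand of GRCm38.p6, at chr3:90603520-90603769 for S100a4, chr3:90612644-90612893 for S100a6 and chr3:93520246-93520495 for S100a11. Capitals mark every match, on either strand, to any of 5 motifs, chosen after the values had been seen and listed with their letters after the sequences.
S100a4: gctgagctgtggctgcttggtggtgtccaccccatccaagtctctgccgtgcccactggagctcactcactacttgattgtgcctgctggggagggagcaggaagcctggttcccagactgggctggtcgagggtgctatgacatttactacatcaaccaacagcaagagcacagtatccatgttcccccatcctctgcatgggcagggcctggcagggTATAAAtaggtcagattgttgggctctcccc
S100a6: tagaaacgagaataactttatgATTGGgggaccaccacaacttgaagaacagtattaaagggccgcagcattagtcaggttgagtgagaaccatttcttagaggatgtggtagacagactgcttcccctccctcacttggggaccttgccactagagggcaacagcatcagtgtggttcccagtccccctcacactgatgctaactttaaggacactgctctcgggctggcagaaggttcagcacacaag
S100a11: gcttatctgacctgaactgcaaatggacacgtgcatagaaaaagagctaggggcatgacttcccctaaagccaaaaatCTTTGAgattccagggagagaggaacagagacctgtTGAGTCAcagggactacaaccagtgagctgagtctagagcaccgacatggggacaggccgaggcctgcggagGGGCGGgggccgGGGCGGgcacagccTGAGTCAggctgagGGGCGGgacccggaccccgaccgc
The S100a4 promoter held 1 match, a TATA box with the letters TATAAA, 31 to 26 bases before the start. This motif occurred in 12.4% of 32851 RefSeq promoters of the same length. The S100a6 promoter held 1 CCAAT box (printed as its reverse complement), on the reverse strand 228 to 224 bases before the start, and 33.8% of promoters held one. The S100a11 promoter held 2 matches to the AP-1 motif TGANTCA, which occurred in 6.75% of promoters. It also held 3 matches to the GC box GGGCGG, which occurred in 32.7%. The last match was to the TCF/LEF motif CTTTGA, which occurred in 13.8%. A RefSeq promoter was given for 8 of the 10 genes. These matches describe letters in the windows only.

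Before the S100 genes, the libraries were compared with their labels. Control samples held between 1760953 and 3414362 reads on genes, and p16 samples between 2884544 and 3202975. The human p16 transgene was listed at 0.7, 1.3, 2.5 and 1.5 in control samples and at 1.6, 10.1, 16 and 7.4 in p16 samples. The library labelled p16 replicate 1 thus held only 2 reads of it and lay within the control range (limma adjusted p = 0.0952 for the groups, exact permutation p = 0.0571). EGFP, the reporter by which the cells were sorted, was lower in p16 samples, with 4152.0, 5798.2, 5458.0 and 5912.6 in control and 3624.4, 3978.8, 3161.8 and 3453.3 in p16 samples (log2 fold change -0.58, limma adjusted p = 0.0167, without overlap). p16 replicate 4 stood apart from the other p16 samples, with a chi-square per gene of 6.75 to 8.96 against them, compared with 3.05 to 3.31 among the other 3 and 3.64 to 5.33 among control samples. For the samples numbered 3 in either group, the labels word the library protocol differently. The S100 genes and the counts of the gene lists were therefore also compared without the library labelled p16 replicate 1, without p16 replicate 4 and without both samples numbered 3, the 3 reduced sets. All 7 markers of basal epidermal keratinocytes (Krt5, Krt14 and others) were detected, and 0 were called by limma, edgeR or DESeq2 (2 higher at an unadjusted limma p under 0.05). Their sums were between 23911 and 41014 in control samples and between 25781 and 29417 in p16 samples, and Krt5 and Krt14 weighed most in them. Over all samples Krt5 held 11761 to 12279 reads and Krt14 10186 to 12146, although the depth of the samples differed far more. The normalized values of these genes thus depended largely on the size factor. Neither the sums nor the absence of calls for them measure the content of basal cells.

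S100a4 and S100a6 were lower in GFP+ cells from p16-expressing mice, and no S100 gene of the 10 was called higher. S100b was also called lower by limma, but on 17 reads in control and 4 in p16 samples. Its call held in 1 of 8 fits with 1 sample left out, and DESeq2 did not make it (adjusted p = 0.215). S100a4 mRNA levels were 4.88 times higher in control than in p16 samples, and those of S100a6 1.58 times higher. The mean log2 level was lower in p16 samples for 10 of 10 genes, against 50.4% of the tested genes. Among these was S100a11, at -0.01 and with a p16 mean (3564) above the control mean (3524), whose sign turned in 10 of 18 alternatives, where the count was 9 of 10 (5 of 6 in the edgeR fits that tested the 6 abundant genes). The 3 genes called lower by limma (adjusted p under 0.05 over all 12782 genes) stand beside a background of 2.61% of tested genes called lower, or 3.86% called in either direction. With unadjusted limma p-values under 0.05, 6 of the 10 were lower and 0 higher (background 8.93% and 7.02%). DESeq2 on the reads called 2 of the 10 lower and 0 higher, with 2.79% of the genes it tested called lower. edgeR tested only the 6 abundant ones and called 2 lower and 0 higher, also beside a background of 2.79%. In 5 of the 10 genes, S100a4, S100a6, S100a10, S100a16 and S100b, every p16 sample lay below every control sample (background 5.63%). The median log2 fold change of all 10 was -0.50, while that of all tested genes was -0.00275. In bulk samples, fewer cells that express a gene and less RNA per cell cannot be told apart.

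**Figure D1:**
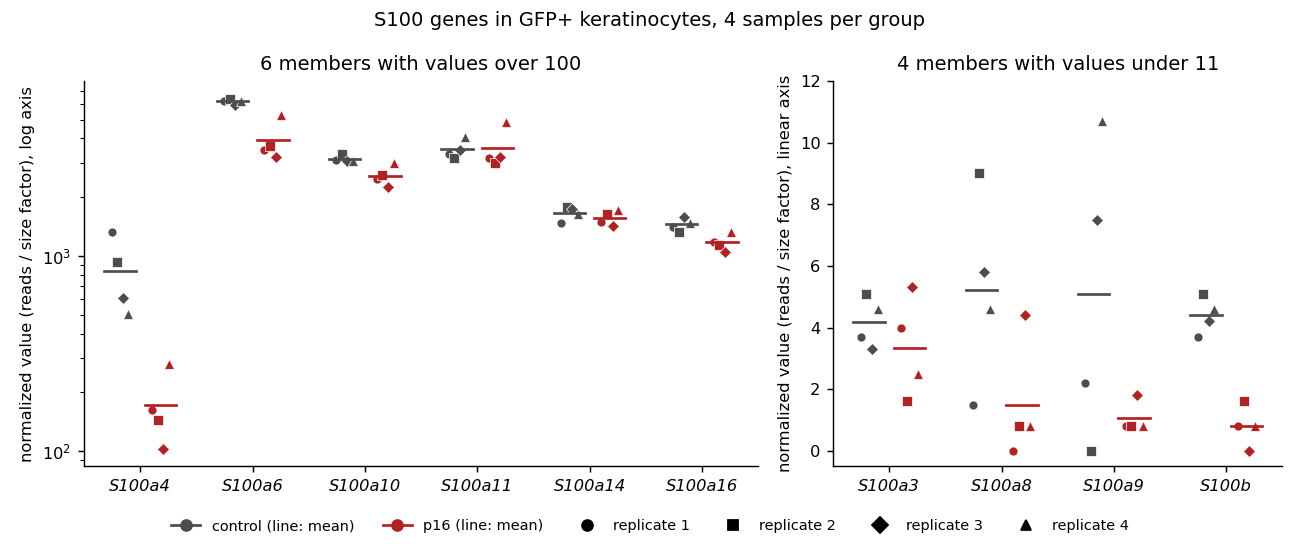
Normalized values (reads divided by a size factor) of the 10 S100 genes in each of 4 control samples (grey) and 4 p16 samples (red), with horizontal lines at the group means and a marker shape for each replicate. The left panel has a log axis and holds the 6 genes with values from 102.9 to 6405.2; the right panel has a linear axis and holds the 4 genes at 10.7 or less. S100a4 and S100a6 show separate groups, S100a11 and S100a14 overlapping ones.

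S100a4, an intracellular regulator of non-muscle myosin and cell motility, showed the largest difference of the 6 abundant genes. In the order of the replicate numbers, used for all genes, the control samples had normalized values of 1327.1, 929.1, 608.9 and 502.6, and the p16 samples of 163.1, 144.4, 102.9 and 280.4. The groups did not overlap, and the highest p16 value, that of replicate 4, was still below the lowest control value. The means were 842 ± 371 in control and 173 ± 76.1 in p16 samples (SD, n = 4 each). The log2 fold change was -2.27 ± 0.29 (SE, 95% interval -2.90 to -1.64, limma adjusted p = 0.000442, exact permutation p = 0.0286). That permutation p is the smallest that 4 against 4 samples can give. S100a4 stayed called in every alternative: the adjusted p stayed at 0.00447 or less, including 0.00235 without the library labelled p16 replicate 1. Without p16 replicate 4 the log2 fold change was -2.54. p16 replicate 4 alone stood at 0.333 of the control mean, and the other 3 p16 samples at 0.162 of it on average.

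S100a6, known as calcyclin and as a partner of annexins and of Cacybp, was called lower with a smaller but tighter difference. Control samples gave 6195.0, 6405.2, 5955.0 and 6227.3, and p16 samples 3489.3, 3679.7, 3209.7 and 5267.9. Control values lay within a narrow band, p16 replicates 1 to 3 well below it, and p16 replicate 4 between those and the control samples, without overlap. The means were 6196 ± 185 and 3912 ± 925 (SD, n = 4 each), and the log2 difference was -0.69 ± 0.13 (SE, 95% interval -0.98 to -0.40, limma adjusted p = 0.00932, exact permutation p = 0.0286). It passed the threshold with each of the 8 samples left out in turn, with the highest adjusted p of 0.0457 when the library labelled p16 replicate 1 was left out. Without p16 replicate 4 the log2 fold change was -0.84 (limma adjusted p = 8.04e-05). When both samples numbered 3 were dropped it was -0.62 and did not pass (limma adjusted p = 0.0703).

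S100a10, the light chain that binds annexin A2 at the plasma membrane, and S100a16, a widely expressed member of the family, had smaller differences that did not pass the adjusted threshold. S100a10 stood at 3109.0, 3347.0, 3056.0 and 3054.1 in control samples and at 2466.6, 2583.5, 2245.0 and 3005.2 in p16 samples. The groups did not overlap, but p16 replicate 4 came close to the 2 lowest control samples. The log2 fold change was -0.29 ± 0.10 (SE, 95% interval -0.51 to -0.08, limma adjusted p = 0.146, exact permutation p = 0.0286). S100a16 stood at 1411.7, 1332.1, 1576.9 and 1483.5 in control samples and at 1173.7, 1141.5, 1053.4 and 1318.8 in p16 samples. Here too every p16 sample lay below every control sample, and replicate 4 was the p16 sample nearest to them. Its log2 fold change was -0.31 ± 0.10 (SE, 95% interval -0.51 to -0.11, limma adjusted p = 0.0971, exact permutation p = 0.0286). Both genes passed the threshold when p16 replicate 4 was left out, at -0.37 each and limma adjusted p-values of 0.0341 and 0.0344. The count of S100 genes called lower was then 4 (S100a4, S100a6, S100a10 and S100a16), with 2.68% of 12814 tested genes called lower.

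S100a11, an annexin A1 partner with roles in keratinocyte growth control, and S100a14, which is found mainly in epithelia, were measured at high levels with overlapping groups. S100a11 gave 3316.0, 3193.0, 3504.5 and 4080.8 in control samples and 3183.8, 3000.5, 3211.5 and 4860.1 in p16 samples. p16 replicate 4 was the highest of all 8 samples, while the other 3 p16 samples, between 3000.5 and 3211.5, lay near the 2 lowest control samples. The log2 fold change was -0.01 with a 95% interval from -0.31 to 0.30 (limma adjusted p = 0.991). Its sign depended on the setting, and it was 0.03 when values were scaled to the same total per sample. S100a14 ranged from 1477.0 to 1782.6 in control samples and from 1416.9 to 1721.7 in p16 samples. Its log2 fold change was -0.08 with a 95% interval from -0.29 to 0.13 (limma adjusted p = 0.766). These intervals leave room for differences in either direction.

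**Figure D2:**
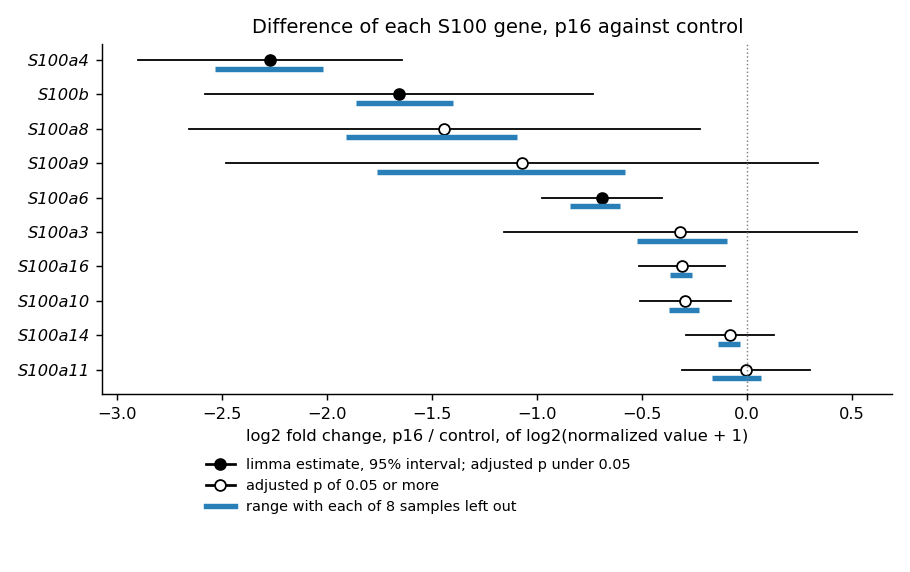
Log2 fold change of log2(normalized value + 1), p16 over control, for each of the 10 S100 genes (points; filled where the limma adjusted p is under 0.05), with the 95% interval (thin line) and the range of estimates when each of the 8 samples was left out (thick line). S100a4 at -2.27, S100b at -1.66 and S100a6 at -0.69 are filled, and the interval of S100a11 spans 0.

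p16 replicate 4 gave the highest p16 value in all 6 abundant genes (S100a4, S100a6, S100a10, S100a11, S100a14 and S100a16). It was the highest p16 sample in 30.8% of all tested genes, against 19.9%, 24.1% and 24.2% for replicates 1, 2 and 3. Relative to the mean of the other 3 p16 samples it stood 2.05 times higher for S100a4, 1.52 times for S100a6 and 1.55 times for S100a11. The highest p16 sample was thus shared among these genes, which come from the same 4 libraries, while the order of the other 3 differed. p16 replicate 3 held the lowest p16 value of S100a4, S100a6, S100a10, S100a14 and S100a16, but not of S100a11.

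**Figure D3:**
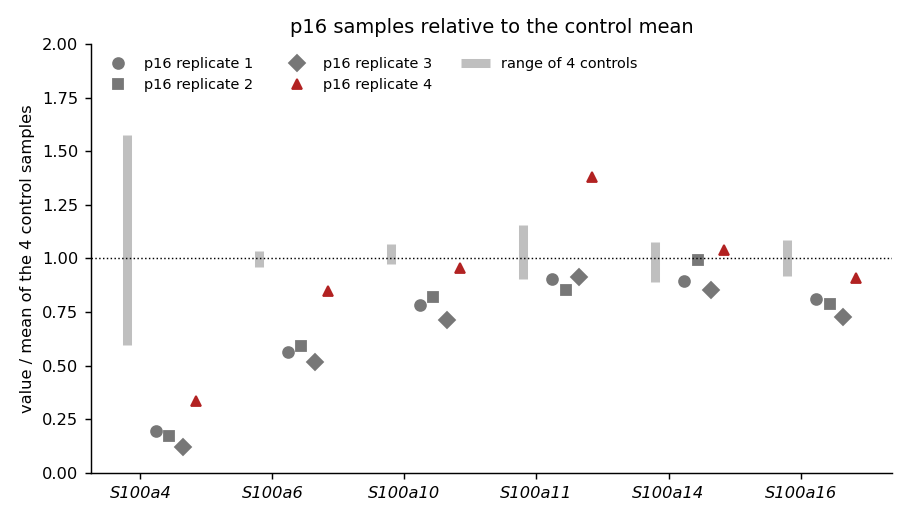
Values of the 6 abundant S100 genes in each p16 sample divided by the mean of the 4 control samples (linear axis), with the range of the control samples as a grey bar. Replicate 4 (red triangles) is the highest p16 sample for each gene, at 0.333 for S100a4, 0.85 for S100a6 and 1.38 for S100a11.

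The 2 genes best known as alarmins, S100a8 and S100a9, whose products form calprotectin, were barely detected in these keratinocytes. S100a8 was listed at 1.5, 9.0, 5.8 and 4.6 in control samples and at 0.0, 0.8, 4.4 and 0.8 in p16 samples, and the groups overlapped. These values stand for 19 reads in the control samples and 7 in the p16 samples, a p16 to control ratio at equal depth of 0.301 with a 95% counting interval of 0.107 to 0.747. The limma adjusted p was 0.216 and the exact permutation p 0.0571. S100a9 was listed at 2.2, 0.0, 7.5 and 10.7 in control samples and at 0.8, 0.8, 1.8 and 0.8 in p16 samples. Control replicate 2 held no read of it, whereas the other 3 control samples stood above all p16 samples. Its 19 and 5 reads gave a ratio of 0.215 (95% counting interval 0.0627 to 0.595, limma adjusted p = 0.475, exact permutation p = 0.229). The counting intervals do not include the spread between samples. Of 9 neutrophil markers, the cells in which calprotectin is most abundant, 6 were at 0 in every sample (Ly6g, Elane, Ngp, Ltf, Retnlg and Mmp8), and the list summed to between 20.7 and 28.3 in control and between 21.0 and 25.6 in p16 samples.

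S100b, known from glia, melanocytes and Langerhans cells, and S100a3, known from the cuticle of the hair shaft, were as scarce. S100b was listed at 3.7, 5.1, 4.2 and 4.6 in control samples and at 0.8, 1.6, 0.0 and 0.8 in p16 samples. The groups did not overlap, but the values amount to 5, 4, 5 and 3 reads against 1, 2, 0 and 1. The ratio was 0.192 with a 95% counting interval of 0.047 to 0.589, and the log2 fold change -1.66 ± 0.43 (SE, limma adjusted p = 0.0471, exact permutation p = 0.0286). With 1 sample left out the call held in 1 of 8 fits, and the adjusted p ranged from 0.0437 to 0.128. It was 0.109 without the library labelled p16 replicate 1, 0.0725 without p16 replicate 4 and 0.216 without both samples numbered 3. S100a3 ranged from 3.3 to 5.1 in control samples and from 1.6 to 5.3 in p16 samples, with 16 reads in each group. The ratio was 0.816 (95% counting interval 0.382 to 1.74), so that a difference was not detectable at this depth.

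The markers of cell types in which S100b and S100a3 are known were set beside them. Of 7 tested melanocyte markers, 2 were called lower in p16 samples (Dct and Tyrp1, enzymes of melanin synthesis), 0 higher (unadjusted limma p, 6 and 0, and DESeq2, 4 and 0), and the list of 8 summed to 138.5 to 549.0 in control and 51.7 to 148.4 in p16 samples. None of the 6 tested Schwann cell and glial markers was called by limma or edgeR, DESeq2 called 1 lower, and by unadjusted limma p-values 3 were lower and 1 higher. This list summed to 816.2 to 1028.3 in control and 743.5 to 944.8 in p16 samples, and it shares Sox10 with the melanocyte list. By limma, edgeR and DESeq2, 0 of 5 Langerhans cell markers were called, and 1 was higher by its unadjusted limma p (sums 134.6 to 159.2 and 147.2 to 196.7). The hair marker list covered the shaft and cuticle but also the inner root sheath (Krt25, Krt27, Krt71 and Krt73). Of 8 hair markers tested, 2 were called lower (Hoxc13 and Krt35) and 0 higher (unadjusted limma p, 3 and 1, edgeR, 1 and 0, and DESeq2, 2 and 0). The cuticle keratin Krt82 was at 0 in every sample (list sums 228.5 to 385.0 and 154.5 to 176.8). Krt32, another hair keratin of the list, was detected, at 58.1 to 106.5 in control and 39.0 to 73.2 in p16 samples. Its log2 fold change was -0.75 (limma adjusted p = 0.0929), and it was called lower without p16 replicate 4. Without the library labelled p16 replicate 1, 0 melanocyte markers and 1 hair marker were called lower by limma, and without both samples numbered 3, 1 of each. The part of these cells in the S100b and S100a3 values was not tested.

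Markers of the hair follicle and the sebaceous gland also moved with the groups. Of 9 hair-follicle stem cell markers, 7 were called lower and 0 higher (Cd34, Tbx1, Lhx2, Krt15, Sox9, Nfatc1 and Fgf18; unadjusted limma p, 8 and 1, and DESeq2, 7 and 0), with a median log2 fold change of -0.74 and sums of 11747 to 15949 in control and 9042 to 9110 in p16 samples. Cd34, the surface marker of bulge stem cells, was at 238.9, 174.5, 121.9 and 140.6 in control and at 8.8, 14.1, 8.0 and 16.4 in p16 samples. Of 6 upper follicle markers, 3 were called lower and 0 higher (unadjusted limma p, 4 and 0, and DESeq2, 3 and 0; sums 8247 to 12824 and 6355 to 7616), and of 8 sebaceous gland markers, 6 lower and 0 higher (unadjusted limma p, 7 and 0, and DESeq2, 5 and 0; sums 1609.3 to 1986.2 and 623.6 to 934.6). The sums of all 3 lists did not overlap between the groups, but abundant genes weigh most in them. Krt15 had means of 10624 in control and 7065.5 in p16 samples, and Cst6 of 4145 and 1582. Krt79, the most abundant upper follicle marker, overlapped between the groups (limma adjusted p = 0.724). By gene, 7 of 9, 2 of 6 and 7 of 8 were lower without overlap (background 5.63%). In the reduced sets, 3 to 7 of the stem cell markers (Cd34, Lhx2 and Tbx1 in each), 1 or 2 of the upper follicle markers and 5 or 6 of the sebaceous gland markers were called lower. Postn, a gene of the stem cell list, went the other way (log2 fold change 0.73, limma adjusted p = 0.272) and was called higher without p16 replicate 4. Among 6 fibroblast markers, a cell type known for S100a4 and S100a6, Dcn alone was called (higher, by limma, edgeR and DESeq2), with a mean of 5.85 ± 3.50 in control and 104 ± 70.6 in p16 samples (SD, n = 4 each). The list summed to 10.8 to 27.3 in control and 42.8 to 220.7 in p16 samples, but without Dcn to 6.6 to 21.4 and 6.6 to 17.7. Of the 4 other markers tested, 0 were called, 1 was lower (Col1a2) and 1 higher (Col1a1) by unadjusted limma p-values, and Lum was at 0 in every sample. T cell markers summed to 7.6 to 18 and 4.5 to 14.1, myeloid markers to 7.8 to 15.5 and 6.4 to 13.2 with Lyz2 at 0, and endothelial markers to 12.9 to 25.9 and 20.4 to 31.2 with Cdh5 and Kdr at 0. None of the 3 T cell, 3 myeloid and 4 endothelial markers tested was called by limma, edgeR or DESeq2, and 1 T cell and 1 endothelial marker were lower by unadjusted limma p-values. The part of these cell types in the S100a4 and S100a6 values was not tested.

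Among all 14 tested S100 genes of the table, 13 had a negative log2 fold change, S100a11 at -0.01 among them, against 50.4% of the tested genes. By limma, 4 of the 14 were called lower and 0 higher (background 2.61% and 1.24%). Of the 9 other genes listed (S100a1, S100a2, S100a5, S100a7a, S100a13 and others, with S100pbp, a gene for an S100-binding protein), 8 were in the table and 5 were tested. Of these 5, 1 was called lower and 0 higher by limma, edgeR and DESeq2 (unadjusted limma p, 1 and 1), with a median log2 fold change of -0.11. The called gene was S100a1, known from muscle, at 175.8, 133.5, 238.9 and 209.3 in control and 88.0, 96.8, 62.1 and 93.7 in p16 samples. Its groups did not overlap, and the log2 fold change was -1.13 ± 0.18 (SE, limma adjusted p = 0.00285, exact permutation p = 0.0286). S100a1 stayed called in all 3 reduced sets, with adjusted limma p-values of 0.0106, 0.00155 and 0.0280. S100a13 did not pass, with means of 94.7 ± 1.17 and 87.2 ± 15.9 (SD, n = 4 each). S100pbp was at 75.6 ± 12.5 in control and 96.9 ± 9.07 in p16 samples (limma adjusted p = 0.237). S100a7a, the mouse psoriasin gene and a further alarmin, was at 5.5 or less in every sample, and S100a2 and S100g were listed at 0.

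On GRCm38 (GENCODE M21) 9 of the 10 genes are protein-coding genes of chromosome 3, and S100b lies on chromosome 10 (76253853 to 76261159, + strand). S100a4 spans 90603771 to 90606045 and S100a6 90612882 to 90624181, both on the + strand, with S100a3 (90560578 to 90602702, +), S100a14 (90526856 to 90528837, +), S100a16 (90537254 to 90543151, +), S100a8 (90668978 to 90670035, +) and S100a9 (90692632 to 90695721, - strand) in the same block. S100a11 (93520488 to 93526287, +) and S100a10 (93555080 to 93564643, +) lie at the other end of the complex. From S100a1 to S100a9, over 0.185 Mb, 12 S100 genes were in the table and 10 were tested. Of these 10, 3 were called lower (S100a4, S100a1 and S100a6) and 0 higher, beside a background of 2.61% and 1.24% of tested genes. By unadjusted limma p-values, 5 were lower and 0 higher (background 8.93% and 7.02%), and by DESeq2, 3 and 0 (background 2.79% and 1.48%). The log2 fold change was negative for 9 of the 10, against 50.4% of the tested genes, and the median was -0.50. In the reduced sets, 2 to 4 of the 10 were called lower. Neighbouring tested genes differed in size of change: S100a4 at -2.27 lies between S100a3 at -0.32 and S100a6 at -0.69.

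Between S100a9 and S100a10, 60 genes of other families were in the table and 36 were tested. Of these 36, 2 were called lower and 7 higher (edgeR, 2 and 4, and DESeq2, 2 and 8), with a median log2 fold change of 1.05, beside a background of 1.24% of tested genes called higher. The 7 were the late envelope genes Lce1m, Lce1a1, Lce1b and Lce1c, together with Lor (loricrin), Kprp and 2310050C09Rik, and the 2 were Ivl (involucrin) and Sprr1a. The count of higher genes changed with the libraries and was 10 without the library labelled p16 replicate 1, 3 without p16 replicate 4 and 2 without both samples numbered 3. The median stayed positive in these sets, between 0.72 and 1.27, and Lor and Sprr1a were called in each. Reads of near-identical Lce genes could have been split between copies. The median of the S100 block and that of the genes of this interval thus had opposite signs, a difference that was not tested.

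**Figure D4:**
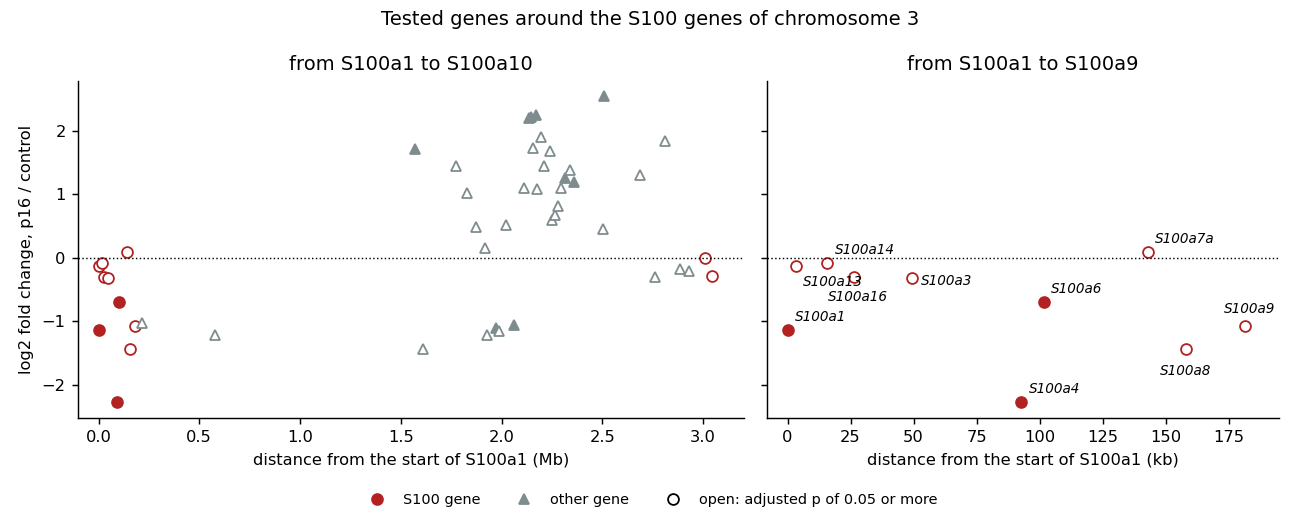
Log2 fold change, p16 over control, of tested genes against distance from the start of S100a1 on chromosome 3, in Mb for the stretch up to S100a10 (left) and in kb for the S100a1 to S100a9 block (right). Circles are S100 genes and triangles other genes, filled where the limma adjusted p is under 0.05. In the block 9 of 10 points lie below 0, and 7 filled triangles above 0 lie between S100a9 and S100a10.

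Some of the genes share sequence positions with neighbours. S100a4 overlaps the gene model Gm42674 on the same strand over 2115 bases, and Gm42674 was listed at 0 in every sample. S100a3 overlaps Gm42674 and S100a2, both listed at 0. S100b overlaps Dip2a on the opposite strand over 1731 bases. Dip2a stood at 0.20 on the log2 scale, p16 over control (limma adjusted p = 0.686), and whether strand was used in counting is not given in the sources used here.

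Genes for proteins that S100 family members bind inside the cell were examined next. Of 14 genes for such partners, 0 were called by limma, edgeR or DESeq2, 3 were lower and 0 higher by unadjusted limma p-values, and the median log2 fold change was -0.04. Anxa2, the partner of S100a10, had means of 4075 ± 319 in control and 3959 ± 522 in p16 samples (limma adjusted p = 0.896). Anxa1, the partner of S100a11, had means of 2467 ± 327 and 2423 ± 93.7 (limma adjusted p = 0.966). Ahnak, a large scaffold bound by S100a10 with Anxa2, had means of 1508 ± 161 and 1275 ± 121 (SD, n = 4 each in all 3 cases, limma adjusted p = 0.26).

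Of 8 tested genes for receptors or binding partners of released S100 proteins, 1 was called lower and 0 higher (unadjusted limma p, 1 and 0, and DESeq2, 1 and 0, edgeR, 0 and 0), with a median log2 fold change of -0.01. The called gene was Cd36, a scavenger and fatty acid receptor, at 8.2, 6.4, 9.2 and 3.1 in control and 0.8, 0.8, 1.8 and 0.0 in p16 samples. The groups did not overlap at these low values (log2 fold change -2.07 ± 0.46, SE, limma adjusted p = 0.0206). The call was lost without the library labelled p16 replicate 1 and without both samples numbered 3 (limma adjusted p = 0.0552 and 0.0822). Bsg (basigin) had means of 1105 ± 31.7 and 1049 ± 144, Nptn (neuroplastin) of 600 ± 34.9 and 639 ± 34.5, and Alcam of 263 ± 57.2 and 202 ± 76.0 (SD, n = 4 each). None of the 3 passed the limma threshold, with adjusted p-values of 0.766, 0.689 and 0.413.

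Other alarmins and antimicrobial proteins were compared in the same way. Of 15 tested, 2 were called lower and 0 higher by limma, edgeR and DESeq2 (unadjusted limma p, 4 and 2), with a median log2 fold change of -0.14. Defb6, a skin beta-defensin, was at 2691.4, 2204.8, 2557.4 and 2685.9 in control and 1633.5, 1843.4, 1627.9 and 1484.9 in p16 samples. Its groups were clearly separate (log2 fold change -0.62 ± 0.10, SE, limma adjusted p = 0.00278). Lcn2, an iron-sequestering antimicrobial protein, was at 46.7, 29.5, 55.1 and 26.0 in control and 7.2, 21.9, 22.2 and 8.2 in p16 samples, again without overlap (log2 fold change -1.45 ± 0.37, SE, limma adjusted p = 0.0413). Defb6 stayed called in all 3 reduced sets, but Lcn2 in none of them (limma adjusted p from 0.0709 to 0.134). Another beta-defensin, Defb1, was called higher without p16 replicate 4. With all samples its log2 fold change was 0.51 (limma adjusted p = 0.0871). Hmgb1, a nuclear protein that acts as an alarmin once released, had means of 2949 ± 223 and 2673 ± 159 (SD, n = 4 each, limma adjusted p = 0.509). Hspa8 and Hmgn1 did not pass either (limma adjusted p = 0.605 for both).

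Genes that keratinocytes switch on under stress, which are often measured with S100a8 and S100a9, were mixed. Of 12 tested, 2 were called lower and 0 higher by limma, edgeR and DESeq2 (unadjusted limma p, 2 and 2), and the median log2 fold change was -0.07. Krt6a, a keratin of the follicle and of wounded epidermis, was at 1634.3, 1427.1, 4492.5 and 2015.2 in control and 351.0, 633.2, 1026.8 and 492.5 in p16 samples. Each p16 sample lay below each control sample, and replicate 3 was the highest of its group in both (log2 fold change -1.89 ± 0.33, SE, limma adjusted p = 0.00477). Sprr1a, a precursor of the cornified envelope, had means of 903 ± 291 and 405 ± 35.6 (SD, n = 4 each) and differed by -1.11 on the log2 scale (limma adjusted p = 0.00225). Both stayed called in the 3 reduced sets, whereas the median of the list turned positive in each (0.03 to 0.23). Stfa3 was called higher without p16 replicate 4 and without both samples numbered 3. With all samples its log2 fold change was 1.47 (limma adjusted p = 0.0559). Krt17, Il1rn and Krt16 did not pass (limma adjusted p = 0.478, 0.101 and 0.445). Il1rn was higher in p16 samples without overlap (log2 fold change 0.42), while Krt17 and Krt16 were lower with overlapping groups.

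In the fused S100 genes, whose long proteins begin with an S100 domain, 0 of 5 tested genes were called by limma or edgeR, DESeq2 called 2 higher, and by unadjusted limma p-values 2 were higher and 0 lower. Flg2 (filaggrin 2) was at between 12.8 and 30.4 in control and at 28.8, 101.5, 32.8 and 56.7 in p16 samples. Of the p16 samples, 1 (the library labelled replicate 1) lay within the control range (limma adjusted p = 0.0596), and without it Flg2 was called higher. Hrnr (hornerin) was at 12.6, 2.6, 5.8 and 6.1 in control and at 12, 72.6, 8.9 and 40.3 in p16 samples, with overlapping groups (limma adjusted p = 0.0963). Flg (filaggrin) ranged from 10.3 to 40.9 in control and from 8.0 to 43.7 in p16 samples, with overlapping groups (log2 fold change -0.31, limma adjusted p = 0.83). The table holds 7 entries named Flg, of which the one that GENCODE M21 gives this name was used, and the others were at 0 in every sample. The median log2 fold change of the 5 was -0.17, and its sign was not stable, at 0.03 to 0.12 in the 3 reduced sets.

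**Figure D5:**
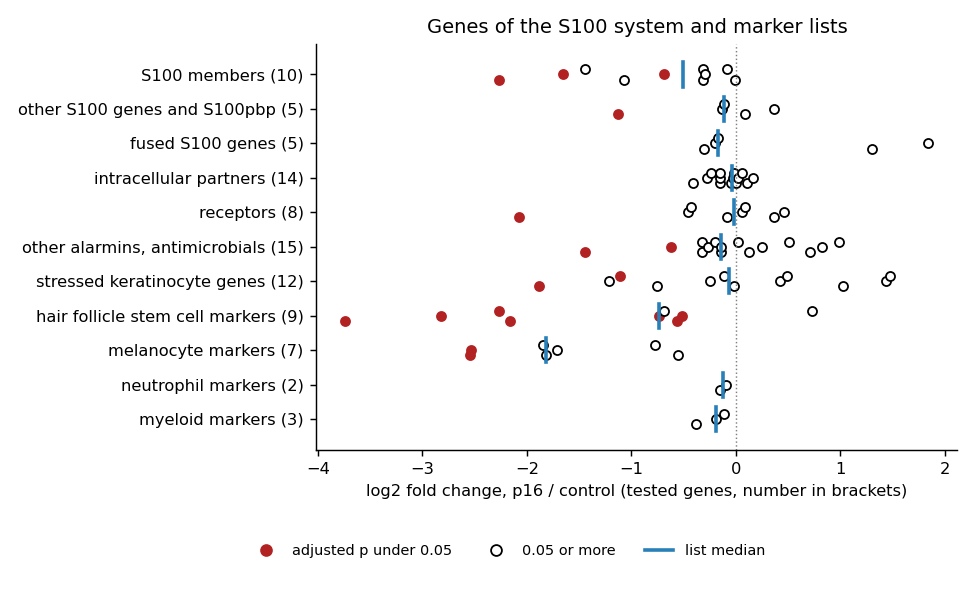
Log2 fold change, p16 over control, of the tested genes in each list (number tested in brackets), filled where the limma adjusted p is under 0.05, with the list median as a blue bar. The medians are -0.50 for the 10 S100 genes, -0.04 for intracellular partners, -0.01 for receptors and -0.17 for fused S100 genes, and -0.74 for hair-follicle stem cell markers.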

How the data were processed

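mRNA was profiled in 8 samples of GFP+ keratinocytes (4 control, 4 p16), and 13 further samples listed in the labels were not analysed here. The authors prepared 3' CEL-Seq2 libraries, trimmed reads with Cutadapt and aligned them to GRCm38 with TopHat2, and the submitters' processing notes also name HTSeq and DESeq2. Annotation version, use of molecular identifiers and strand setting are not given in the sources used here. The deposited signal values are read counts divided by size factors, given to 1 decimal. Further deposited columns of the authors hold group mean signals, a test score, p-values and log2 ratios of their own comparison, and were not used.

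Values were whole multiples of 1 read (worth 0.74183 to 1.5278), which gave reads back as whole numbers, within a tolerance of 0.051, for 99.97% of the values or more in each sample. A floor of 3 reads corresponds to 2.23 to 4.58 normalized units. Intervals from reads cover counting error only.

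The design allowed for raw counts or normalized values, and the table held the latter. p16 and control samples were set against each other by limma 3.58.1 (R 4.3.3, trended eBayes) on log2(value + 1) for the 12782 entries with a mean of 1 or more. A gene was called at a Benjamini-Hochberg adjusted p under 0.05. Fold changes on this scale understate the change of low genes. Single genes were also compared by exact two-sided permutation tests (scipy 1.17.1). On simulated counts for this comparison, with 200 genes changed among 12773 tested, limma called 81% of the genes changed by a log2 of 1 and 100% of those changed by a log2 of 2. The changed genes were drawn only from genes with higher mean reads than S100a3, S100a8, S100a9 and S100b. These shares therefore do not cover such low genes. Since nothing ties each sample to its own experiment, p-values set differences against the spread between these samples only. The alternatives were a pseudocount of 0.1, no filter, scaling to the same total, edgeR 4.0.16 (TMM or upper quartile scaling, with and without a filter) and DESeq2 1.42.0 on the recovered reads, a replicate block, samples left out and unadjusted p-values.

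The S100 genes and the gene lists were chosen with earlier results of these data known. The text names all 10 S100 genes and, of each related list, the called genes and at most 3 uncalled ones with the highest mean. Defb1 and Stfa3, called only in reduced sets, were named in addition. Single cell type markers and the overlapping genes Dip2a and Gm42674 were named after their values had been seen. Promoters are those of RefSeq on GRCm38.p6, and coordinates those of GENCODE M21.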

Additional observations from a re-analysis of the deposited data

Results flagged for a closer look

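In groups of 4 samples, the gap between the highest or lowest sample and its nearest neighbour was set against the range of the group, for the 10 S100 genes in both groups. This marked 2 of 20 groups, where chance marks about 1 in 20 independent groups of continuous values. The groups here share libraries, and the rate does not hold for genes with few reads. S100a11 in p16 replicate 4 was at 4860.1, with a gap that made up 0.887 of the group's range. S100a9 in p16 replicate 3 was at 1.8, which stands for 2 reads against 1 read in each of the other p16 samples. Those ties alone made the gap the whole range (1.0).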

How the results depend on the processing

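S100a4 kept its call under all 18 alternatives, S100a6 under 17 and S100b under 3 of the 16 that could test it. Against 159 genes called higher and 334 lower by limma, edgeR with TMM on the recovered reads called 160 and 299, and DESeq2 188 and 355. Leaving out replicate 3 of both groups gave 66 genes called higher, 157 lower and 1 S100 gene lower (S100a4), and unadjusted p-values 897, 1141 and 6. With each sample left out, 69 to 196 genes were called higher and 177 to 343 lower, and 2 to 4 of the S100 genes lower. The lowest counts came without the library labelled p16 replicate 1 (69 higher, 192 lower) and without control replicate 1 (86 higher, 177 lower), and 99 genes were higher without p16 replicate 3. The cause was not tested, though fewer samples were fitted in each.

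The log2 fold change of S100a11 turned positive in 10 alternatives: 0.0300 with equal totals, 0.0346 without both samples numbered 3, 0.00908 with edgeR and TMM, 0.0189 with edgeR and upper quartile scaling as well as without a filter, 0.0187 with DESeq2, and from 0.0350 to 0.0677 in 4 fits without 1 sample (-0.16 without p16 replicate 4). The deviations of same-numbered samples correlated at 0.00437 to 0.0827, and those of differently numbered samples at -0.0997 to 0.058. These small correlations do not settle whether shared replicate numbers mark pairs. With the replicate block, 216 genes were called higher and 392 lower, and S100b was lost (adjusted p = 0.0657). edgeR with a filter did not test S100a3, S100a8, S100a9 and S100b. With 16 to 19 reads over the 4 control samples, these 4 genes are limited by depth.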
